A study of Homo sapiens with 47 samples.

Results

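Dorsoventral patterning factors of the neural tube were followed through the serial passage of human embryonic stem cell-derived spinal cord progenitors. The 10 genes are a list of named factors, with no threshold on their values: *PAX3*, *PAX7*, *PAX6*, *DBX1*, *DBX2*, *IRX3*, *IRX5*, *NKX6-1*, *NKX6-2* and *OLIG2*. Each was found once by its symbol among the 58051 genes listed for every library. H9 (WA09), an established human embryonic stem cell (hESC) line, was sequenced undifferentiated in mTESR1 on Matrigel (t0). All later groups had been given N2B27 lacking vitamin A with CHIR-99021 (a WNT agonist), rhFGF2, AGN193109 (an inverse agonist of the retinoic acid receptors) and the ROCK inhibitor Y-27632, and were collected at 36 h, when the label names neuromesodermal progenitor (NMP)-like cells, and at passages P1 to P10. At P5 and P8, cells were also split with TrypLE express into epithelial (EPI, labelled pre-neural progenitors, PNPs) and mesenchymal (MES, labelled neural crest, NC) samples, which are enriched for these cells and not sorted. In all, 47 bulk polyA RNA sequencing libraries were compared, 35 from whole cultures and 12 from the fractions, with 3 independent differentiations (r1 to r3) in each group and 2 at P9. All came from 1 cell line. Every group after t0 shares the inverse agonist of the retinoic acid receptors, no culture without these factors was followed in parallel, and time and the change of medium cannot be told apart in comparisons with t0.

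In the neural tube, progenitors are divided along the dorsoventral axis by homeodomain and bHLH transcription factors that repress one another across domain borders. *PAX3* and *PAX7* mark dorsal progenitors, *PAX6*, *DBX1*, *DBX2*, *IRX3* and *IRX5* the intermediate territory, and *NKX6-1*, *NKX6-2* and *OLIG2* the ventral domains that form under Sonic hedgehog, *OLIG2* being the factor of motor neuron progenitors. *PAX3* is also a gene of the neural plate border and NC, and *PAX6* and *IRX3* are known as neural genes that FGF holds down and retinoic acid releases.

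Deposited expected counts summed to between 13029491 and 64082859 in a library, the median library holding 47292229. Summed TPM (RSEM's level per transcript length, scaled to the library) of 4 pluripotency markers was between 2508 and 2836 at t0 and between 1.68 and 5.18 at P10. In r1 it remained at 2278 at 36 h and 1292 at P1, where r2 and r3 were between 848 and 1577 and between 153 and 179. The P10 library of r1 also stood apart, with a sum of 733 TPM over 5 pre-neural epithelium markers against 64.9 and 124 in r2 and r3. Over 8 NC markers, the P5 EPI samples (80.3 to 300 TPM) lay below the P5 MES samples (523 to 689 TPM). At P8 the EPI samples (116 to 849 TPM) overlapped the MES samples (341 to 1212 TPM), although MES was the higher in each of 3 differentiations. In bulk RNA, fewer cells of a type and less RNA per cell cannot be told apart.

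Of the 10 genes, *PAX3* came to dominate the set. *PAX3*, *NKX6-1*, *IRX3*, *IRX5* and *OLIG2* reached a mean of 100 normalized counts (counts scaled for library size) in at least 1 group, and the other 5 did not. Of the 10, 7 passed the filter on low counts and were tested, and *DBX1*, *DBX2* and *NKX6-2* were not. Across the 12 time points, 4 of the 7 passed edgeR's quasi-likelihood F-test with a false discovery rate (FDR) below 1%, a 2-fold or larger difference and 100 or more normalized counts on average, beside 27.4% of all 21750 genes tested. These were *PAX3* (Benjamini-Hochberg adjusted p = 3.2e-10), *NKX6-1* (adjusted p = 1.6e-06), *IRX5* (adjusted p = 9.5e-06) and *IRX3* (adjusted p = 0.007). *OLIG2* (adjusted p = 6.6e-06), *PAX7* (adjusted p = 0.0022) and *PAX6* (adjusted p = 0.0023) had means below 100 normalized counts and were therefore not called. The call of *IRX3* was lost without r2 or r3, that of *IRX5* without r2 (adjusted p = 0.025) and that of *NKX6-1* without r3 (adjusted p = 0.01).

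**Figure D1:**
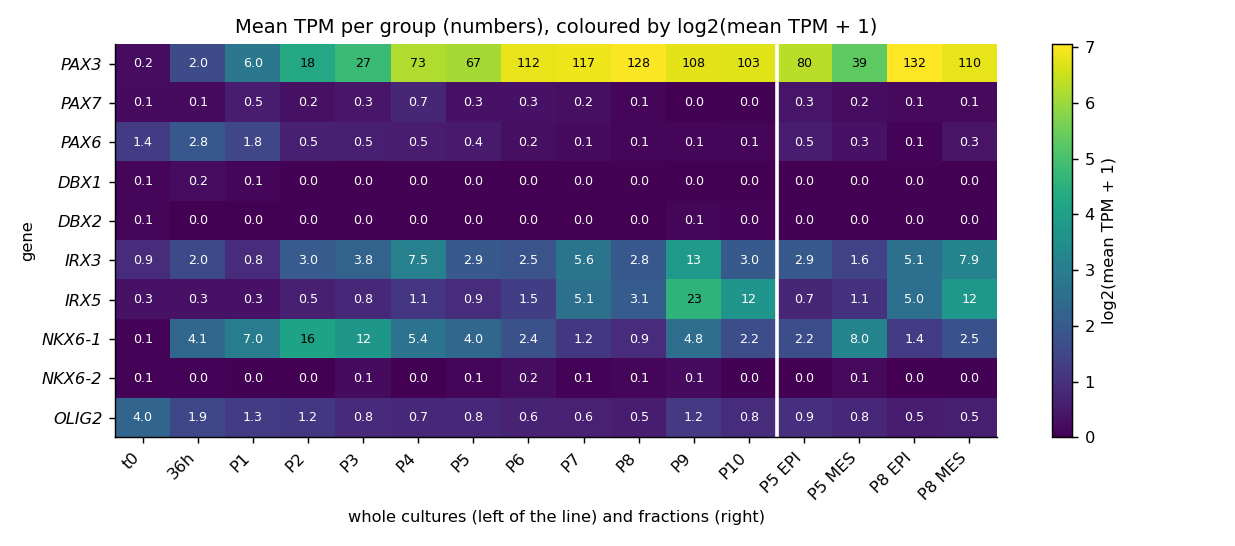
Mean TPM of each of the 10 genes (rows) in each of the 16 groups (columns, whole cultures left of the white line, fractions right of it), printed in each cell and coloured by log2(mean TPM + 1). *PAX3* exceeds 100 TPM at P6 to P10, while *DBX1*, *DBX2* and *NKX6-2* are close to 0 in all groups.

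*PAX3*, on chromosome 2 at chr2:222199888-222298996 (GRCh38, minus strand), was low at t0 and was called higher in 2 of the 4 intervals tested. At t0 its level was 0.17, 0.13 and 0.23 TPM in r1, r2 and r3, and at 36 h 3.32, 0.84 and 1.97 TPM. The 36 h libraries lay above t0 without overlap. Against t0, the log2 fold change was 3.31 (SE 0.61, adjusted p by edgeR = 0.00077), but the mean of 74.6 normalized counts was under the minimum for a call. At P3 the level was 34.3, 28.1 and 18.7 TPM, and against 36 h *PAX3* was called higher (log2 fold change 3.86, SE 0.53, adjusted p by edgeR = 1.3e-05). It was the one member called among 7 tested in that interval, where 6.93% of all genes were called (2.88% higher and 4.05% lower). Over the same interval the NC marker sum went from 30.7, 39.8 and 80.0 TPM to 66.7, 292 and 345 TPM, and the presomitic and somite mesoderm sum at P3 was 368 TPM in r1, the library with most *PAX3*, against 20.5 and 34.6 TPM in r2 and r3. At 36 h and P1, r1 likewise had most *PAX3* but the lowest mesoderm sum, 8.95 and 7.64 TPM, and in r3 that sum went from 632 TPM at 36 h to 34.6 TPM at P3. *PAX3* is also known in somites, and the part of these cells in its level was not tested. At P8 it had reached 110, 146 and 128 TPM, and against P3 it rose again (log2 fold change 2.25, SE 0.48, adjusted p by edgeR = 0.0058), with the same direction in 3 of 3 differentiations. The NC marker sum at P8 was 150, 490 and 880 TPM and the mesoderm sum 4.52, 8.76 and 15.9 TPM. The sum over 4 melanocyte lineage markers went from 47.9, 12.3 and 21.5 TPM at P3 to 115, 88.6 and 46.0 TPM at P8. At t0, where *PAX3* was low, that sum was already 92.0, 89.7 and 110 TPM. The log2 fold changes of P8 against P3 were 4.65 for *MITF*, 6.37 for *TYRP1*, 4.17 for *DCT* and 0.75 for *PMEL*. The part of these markers in the *PAX3* rise was not tested. This second call was lost without r2 (adjusted p = 0.14), without r3 (adjusted p = 0.17) and without the differentiation as a block (adjusted p = 0.014).

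From P6 on the order of *PAX3* levels could not be resolved. The group means of P6 to P10 and of both P8 fractions lay between 103 and 132 TPM, and each overlapped its neighbor in that order. At P10 the level was 134, 71.2 and 104 TPM, and P9 with P10 did not differ from P8 at this spread (log2 fold change -0.32, SE 0.41, adjusted p by edgeR = 0.68). Only 2 borders between neighboring groups in the order showed no overlap, the one above t0 and the one between P5 (54.5 to 91.4 TPM) and P5 MES (27.6 to 50.3 TPM). *CCDC140*, which overlaps *PAX3* on the other strand, ranged from 0.793 to 2268 normalized counts, and the strand setting of the counting is not given in the sources used here.

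*NKX6-1* (chr4:84491987-84498450, minus strand), a ventral progenitor factor, had an early peak instead. At t0 it was represented by 3, 2 and 6 reads, or 0.06, 0.04 and 0.07 TPM, and at 36 h by 2.14, 3.32 and 6.74 TPM. Pooled over libraries, the 36 h level was 84.6 times that of t0, with a 95% exact binomial interval from 47.0 to 170.0 that covers counting error only. In edgeR's test *NKX6-1* rose (log2 fold change 6.24, SE 0.87, adjusted p = 3.7e-05). It was the one member called among 7, against 2.71% of all genes. The call was lost without r2 or r3 (adjusted p of 0.028 at most), and it held when the r1 libraries of 36 h and P1 were left out (log2 fold change 6.55, adjusted p = 4.2e-05).

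The *NKX6-1* peak differed in time between differentiations. The P2 level was 3.96, 21.3 and 23.1 TPM, so that among whole cultures r2 and r3 were at their highest there, while the highest of r1 was 7.83 TPM at P1. At P3 *NKX6-1* was at 5.30, 9.96 and 21.6 TPM. By P8 it was at 1.25, 0.77 and 0.58 TPM, below all 3 P3 libraries. This fall was called (P8 against P3 log2 fold change -3.71, SE 0.71, adjusted p by edgeR = 0.0023), and it was largest in r3, whose within-differentiation log2 ratio was -5.18 against -2.13 in r1. The mesoderm sum was 8.95, 132 and 632 TPM at 36 h, in the same order as *NKX6-1*, and went from 368, 20.5 and 34.6 TPM at P3 to 4.52, 8.76 and 15.9 TPM at P8, and its part in the *NKX6-1* level was not tested. With *PAX3* moving the opposite way, 2 of 7 members were called between P3 and P8, beside 1.61% of all genes (1.24% higher and 0.377% lower). The *NKX6-1* call was also lost without r2 or r3, with adjusted p of 0.2 at most.

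**Figure D2:**
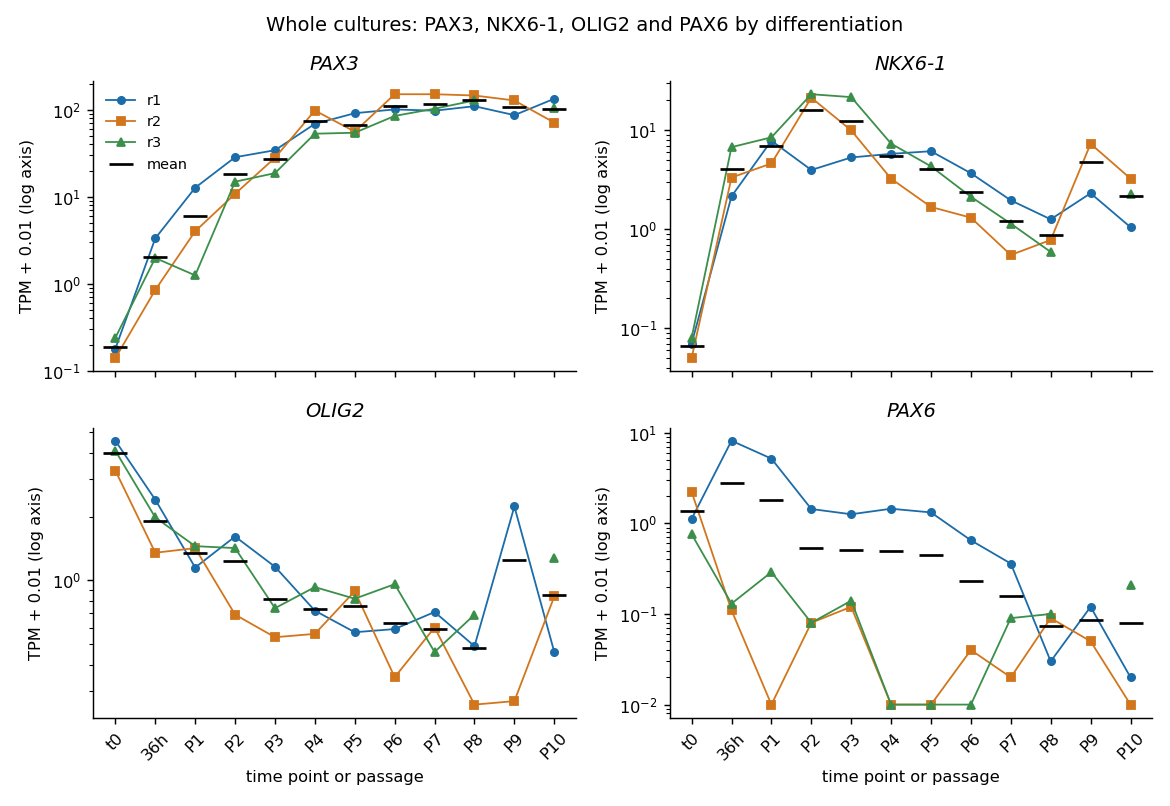
TPM + 0.01 on a log axis at each time point for *PAX3*, *NKX6-1*, *OLIG2* and *PAX6*, with 1 line per differentiation (r1 to r3) and black bars for the mean. *PAX3* climbs to about its P6 level and stays there, and *NKX6-1* peaks at P2 in the mean and in r2 and r3, and at P1 in r1. *OLIG2* is highest at t0, and *PAX6* is highest in r1 from 36 h to P7.

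The order of the dorsal and the ventral factor changed over time in r2 and r3 and not in r1. *PAX3* TPM exceeded *NKX6-1* TPM in 40 of 47 libraries. The 7 exceptions were all from r2 and r3 between 36 h and P3. At P2, *NKX6-1* made up 59.0% and 49.6% of the summed TPM of the 10 genes in r2 and r3, and 10.8% in r1. At P8, *PAX3* made up between 92.4% and 96.3% of that sum. The r1 libraries of 36 h and P1 had the high pluripotency marker sums given above. They also had the lowest sums over 7 presomitic and somite mesoderm markers, 8.95 TPM against 132 and 632 TPM at 36 h and 7.64 TPM against 396 and 487 TPM at P1. The part of either in the *PAX3* to *NKX6-1* ratio was not tested.

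*OLIG2* (chr21:33025845-33029196, plus strand) was at its highest before differentiation. The t0 level was 4.54, 3.28 and 4.07 TPM, above all other groups without overlap. It was 2.39, 1.34 and 1.97 TPM at 36 h and 0.48, 0.25 and 0.68 TPM at P8. None of the 4 intervals passed the threshold (36 h against t0: log2 fold change -1.19, SE 0.45, adjusted p by edgeR = 0.084), and at 36 h *OLIG2* was lower in 3 of 3 differentiations. *OLIG1*, the neighboring bHLH gene, was at 3.54, 4.00 and 4.43 TPM at t0 and at 0.48, 0.26 and 0.12 TPM at 36 h. The sum over 6 forebrain and eye markers went from 70.0, 71.6 and 69.1 TPM at t0 to 27.4, 2.63 and 6.52 TPM at 36 h. The pluripotency sum went from between 2508 and 2836 TPM to between 848 and 2278 TPM. The part of either in the *OLIG2* level was not tested. At P9, *OLIG2* was at 2.22 TPM in r1 and 0.26 TPM in r2, so the 2 libraries differed widely. None of the whole cultures after t0 reached the lowest t0 value.

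*PAX6* (chr11:31784779-31818062, minus strand), a neural progenitor factor, was mainly a feature of r1. At t0 it was at 1.11, 2.22 and 0.75 TPM. At 36 h it was at 8.15 TPM in r1 and at 0.10 and 0.12 TPM in r2 and r3, and at P1 at 5.17, 0.00 and 0.28 TPM. In r1 it was the highest of the 3 differentiations at 8 of the 11 time points that have all of them. Within a differentiation, the log2 ratios of 36 h to t0 for r1, r2 and r3 were 2.56, -4.95 and -2.47, and edgeR's test over all 3 gave -2.14 (SE 1.19, adjusted p = 0.27). Without r1 the log2 fold change was -4.55 (edgeR adjusted p = 0.023). The r1 libraries with most *PAX6* were those with the high pluripotency marker sums at 36 h and P1, while the t0 libraries had higher sums and less *PAX6*. The sum over 6 forebrain and eye markers was also highest in r1, at 27.4 TPM against 2.63 and 6.52 TPM at 36 h and 9.76 TPM against 3.29 and 2.45 TPM at P1. The part of either in the *PAX6* level was not tested. From P8 on, *PAX6* was at 0.20 TPM or less in every whole culture and was represented by 5 reads or fewer. *ELP4*, which overlaps it on the other strand, held between 421 and 986 normalized counts throughout.

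*PAX7* (chr1:18631006-18748866, plus strand), the dorsal paralog of *PAX3*, stayed low. Its highest value was 1.28 TPM in P1 of r1, the one library in which it reached 1 TPM. It was at 0.45, 0.98 and 0.69 TPM at P4, and at 0.07, 0.15 and 0.03 TPM at P8. At P9 it had 0 and 1 reads and at P10 10, 0 and 0 reads, where the 10 reads were in r1. A count of 0 still allows up to 3 reads. P9 with P10 against P8 gave a log2 fold change of -3.15 (SE 1.05, adjusted p by edgeR = 0.054), which did not pass.

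The remaining 3 factors were near the limit of detection. *DBX1* (chr11:20156155-20160613, minus strand), a factor of interneuron progenitors next to the ventral domain, had no read in 30 of 47 libraries and 3 reads or fewer in 44. Its maximum of 10 reads (0.38 TPM) was in 36 h of r1. *DBX2* (chr12:45014672-45051099, minus strand) had no read in 18 libraries and never more than 7. It had 7, 5 and 5 reads at t0 and 0 in each 36 h library, so these groups did not overlap, although a count of 0 allows up to 3 reads. *NKX6-2* (chr10:132783179-132786052, minus strand), the paralog of *NKX6-1*, had no read in 22 libraries and a maximum of 10 reads. It overlaps *INPP5A* on the other strand (1455 to 2522 normalized counts). None of the 3 entered the fit, so no difference among groups was tested in them.

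*IRX3* (chr16:54283304-54286763, minus strand) and *IRX5* (chr16:54930862-54934485, plus strand) encode Iroquois homeodomain factors and share a stretch of coding sequence that is longer than a sequencing read. It lies in the second exon of both genes, at chr16:54285321-54285454 in *IRX3* and at chr16:54932633-54932766 in *IRX5*. The 134 identical bases are in capitals below, 5′ to 3′ in the sense of each transcript (GENCODE 29 on GRCh38), with 20 flanking bases in lower case on either side, and are shown because reads from them fit either gene.
IRX3: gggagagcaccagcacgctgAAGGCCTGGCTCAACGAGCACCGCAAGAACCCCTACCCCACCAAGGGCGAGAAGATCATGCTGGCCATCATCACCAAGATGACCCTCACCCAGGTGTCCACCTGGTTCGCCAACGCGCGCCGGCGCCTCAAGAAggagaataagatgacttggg
IRX5: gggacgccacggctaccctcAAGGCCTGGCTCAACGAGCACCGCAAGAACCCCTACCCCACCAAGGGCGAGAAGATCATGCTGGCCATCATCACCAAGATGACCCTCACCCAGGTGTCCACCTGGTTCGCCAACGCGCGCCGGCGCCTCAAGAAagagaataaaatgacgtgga
Of the 75-base windows of the longest coding transcript, 60 occur in the partner's transcripts, which is 2.37% for *IRX3* and 2.58% for *IRX5*. The expected count of *IRX3* was not whole in 44 of 47 libraries (tolerance 0.015), and the sum of the pair was not whole in 2. The longest runs shared by *PAX3* and *PAX7* and by *NKX6-1* and *NKX6-2* were 33 bases and by *DBX1* and *DBX2* 14 bases, below the read length.

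*IRX3* was expressed at a low and irregular level from the start. It was at 0.81, 0.80 and 0.95 TPM at t0, at 1.93, 1.39 and 2.69 TPM at 36 h and at 9.87, 6.09 and 6.42 TPM at P4. At P5 it was at 6.93 TPM in r1 but at 0.44 and 1.42 TPM in r2 and r3. Its highest mean was at P9, with 10.3 and 15.1 TPM, above the P8 level of 1.54, 2.40 and 4.39 TPM. P9 with P10 against P8 gave a log2 fold change of 1.5 (SE 0.77, adjusted p by edgeR = 0.22), which did not pass. None of the intervals up to P8 passed edgeR's test, with log2 fold changes of 0.61 (36 h against t0), 1.06 (P3 against 36 h) and -0.34 (P8 against P3). The F-test call over time was lost in 4 of 12 alternatives, those without r2, without r3, without the block and with all 47 libraries in the fit. When *IRX3* and *IRX5* were counted as one feature, this feature passed too (edgeR adjusted p = 5e-04).

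*IRX5* was low until P6. At t0 it was at 0.33, 0.18 and 0.28 TPM, and at P5 at 1.11, 0.56 and 0.90 TPM. At P9 it was at 9.89 and 36.0 TPM, and at P10 at 1.33, 27.2 and 7.17 TPM, where the low library was again r1. Compared with P8 (0.78, 3.76 and 4.83 TPM), *IRX5* in P9 with P10 was higher in all 5 libraries relative to its own differentiation. The NC marker sums were 1134 and 1125 TPM at P9 and 247, 979 and 1014 TPM at P10, where the lowest was the r1 library with least *IRX5*, against 150, 490 and 880 TPM at P8. The 8 NC markers did not move together (median log2 fold change 0.17), with *TFAP2A* at 3.96 and *TWIST1* at 3.01 but *FOXD3* at -2.07 and *SOX10* at -1.87. Their part in the *IRX5* level was not tested. The log2 fold change of 2.66 (SE 0.88, adjusted p by edgeR = 0.054) missed the threshold, which DESeq2 passed (adjusted p = 0.0069). Of the reads of the pair, *IRX5* held 30.4%, 19.0% and 25.4% at t0 and 44.0%, 87.6% and 82.7% at P10. Both genes were also high in P7 of r3 (13.4 TPM for *IRX3* and 12.6 TPM for *IRX5*), where the NC marker sum was 873 TPM against 127 and 164 TPM in r1 and r2; the part of this in the *IRX* levels was not tested.

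**Figure D3:**
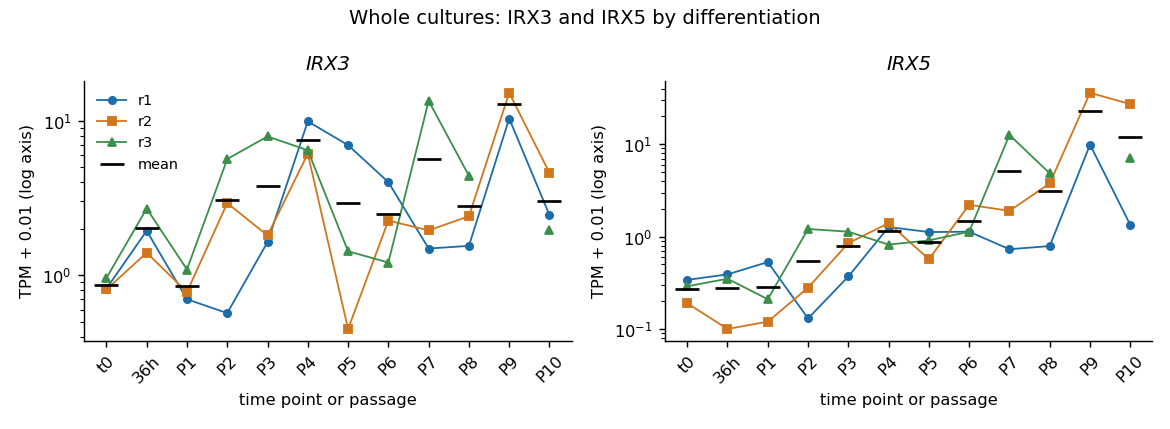
TPM + 0.01 on a log axis at each time point for *IRX3* and *IRX5*, 1 line per differentiation and black bars for the mean. *IRX5* does not exceed 1.20 TPM up to P3 and reaches 36.0 TPM at P9, while *IRX3* at P5 ranges from 0.44 to 6.93 TPM between differentiations.

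In the last interval no member was called. Among the 7 tested, edgeR gave 0 calls between P8 and P9 with P10, beside 1.25% of all genes, with 4 at an unadjusted p below 0.05, and DESeq2 gave 2. Of all 21750 genes, 5708 had an unadjusted p below 0.05 by edgeR, and DESeq2 called 740. *NKX6-1* had a log2 fold change of 2.00 (SE 0.63, adjusted p = 0.044). It was at 2.30 and 7.29 TPM at P9 and at 1.04, 3.24 and 2.24 TPM at P10. Without r1 *NKX6-1* was called (log2 fold change 2.92, edgeR adjusted p = 0.00064), without r2 the log2 fold change was 1.08 (adjusted p = 0.54), and without the P10 library of r1 alone it was 2.22 (adjusted p = 0.015). *OLIG2* had a log2 fold change of 1.29 (SE 0.43, adjusted p = 0.057). Over this interval the pre-neural marker sum went from 1000, 486 and 313 TPM at P8 to 118 and 125 TPM at P9 and 733, 64.9 and 124 TPM at P10, and the forebrain and eye sum from 5.88, 31.1 and 30.3 TPM to 439 and 65.5 TPM at P9 and 42.9, 190 and 363 TPM at P10. Their part in the members' values was not tested.

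The fractions were compared within the differentiation they came from, with its number as a block that P5 and P8 shared. Deviations from the group mean correlated more within an EPI and MES pair of one passage and number. There the mean r was 0.65 at P5 and 0.78 at P8, against 0.42 over all fractions of a number. Such a pair was not a block in the main fit. The edgeR fit of the 12 fraction libraries called 0 of 18885 genes, or 0%, between MES and EPI at P5, at P8 and for the difference between these effects, while 4894, 2261 and 1152 genes had an unadjusted p below 0.05, and DESeq2 called 674, 55 and 1. No member was called either, with 2 of 7 at an unadjusted p below 0.05 at P5 and 0 for the others, and 2 called by DESeq2 at P5 and 0 for the others. With each EPI and MES pair as a block, chosen after seeing the data, edgeR called 305 genes at P5 and 0 at P8. The paper reports many genes as differing between the P5 fractions at the same FDR and fold limits, with DESeq2 base means. The 0 calls of the main fit therefore do not show that the fractions were alike. *PAX3* was at 107, 69.6 and 63.5 TPM in P5 EPI and at 50.3, 38.4 and 27.6 TPM in P5 MES. The groups did not overlap, and MES was the lower in 3 of 3 differentiations by a log2 fold change of -1.03 (SE 0.25, adjusted p by edgeR = 0.045). At P5 the pre-neural sum was 1021, 930 and 720 TPM in EPI and 409, 402 and 154 TPM in MES. The sums over neuron, melanocyte lineage and skeletal muscle markers were also lower in MES in 3 of 3 differentiations. Those over pluripotency, NC, mesoderm and forebrain and eye markers were higher in 3 of 3. The genes within a list did not all follow its sum. Median log2 fold changes were -1.74 for pre-neural, 2.09 for NC, 0.38 for neuron and -0.15 for melanocyte lineage markers. They were -0.08 for pluripotency, 0.06 for mesoderm and -0.62 for forebrain and eye markers (3 of 6 tested). Of the 4 skeletal muscle markers, 1 was tested. The part of these markers in the members' fraction values was not tested. With the fractions of each passage and number as a block, an alternative chosen after seeing the data, and in DESeq2, *PAX3* was called (adjusted p = 0.004 and 0.0013). At P8 it was at 104, 154 and 137 TPM in EPI and 94.9, 125 and 109 TPM in MES. These groups overlapped, and the log2 fold change was -0.33 (SE 0.25, adjusted p by edgeR = 0.63). The difference between the passages was not resolved (log2 0.70, SE 0.36, adjusted p = 0.83).

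*NKX6-1* was oriented the other way. It was at 2.86, 1.3 and 2.54 TPM in P5 EPI and at 15.0, 3.06 and 5.85 TPM in P5 MES, again without overlap. The log2 fold change was 1.78 (SE 0.53, adjusted p by edgeR = 0.076), and DESeq2 called it (adjusted p = 0.0074). The mesoderm sum was 4.54, 2.45 and 6.83 TPM in P5 EPI and 8.27, 5.69 and 10.8 TPM in P5 MES. Its part in the *NKX6-1* level was not tested. At P8, *NKX6-1* was higher in MES in 3 of 3 differentiations but the groups overlapped (0.79, 0.47 and 2.94 TPM in EPI, 2.12, 0.84 and 4.43 TPM in MES). *IRX5* was at 0.76, 0.43 and 0.91 TPM in P5 EPI and 1.08, 1.11 and 0.96 TPM in P5 MES, without overlap (log2 fold change 0.67, SE 0.89, adjusted p by edgeR = 0.69). It was at 0.47, 2.5 and 11.9 TPM in P8 EPI and 2.35, 9.77 and 25.5 TPM in P8 MES. MES was the higher in 3 of 3 differentiations by log2 ratios of 2.32, 1.85 and 1.05, and it did not pass (edgeR adjusted p = 0.51, and 0.067 with the block within each passage). *IRX3* had no shared direction at P5 (log2 ratios -1.36, 0.23 and -0.84) and was higher in MES in 3 of 3 differentiations at P8 (0.09, 1.47 and 0.39). *PAX7* did not exceed 0.49 TPM in any fraction. Its normalized counts were lower in MES in 3 of 3 differentiations at both passages, but its TPM at P8 was 0.13, 0.18 and 0.09 in both fractions. *OLIG2* stayed between 0.24 and 1.12 TPM in all 12 fractions.

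**Figure D4:**
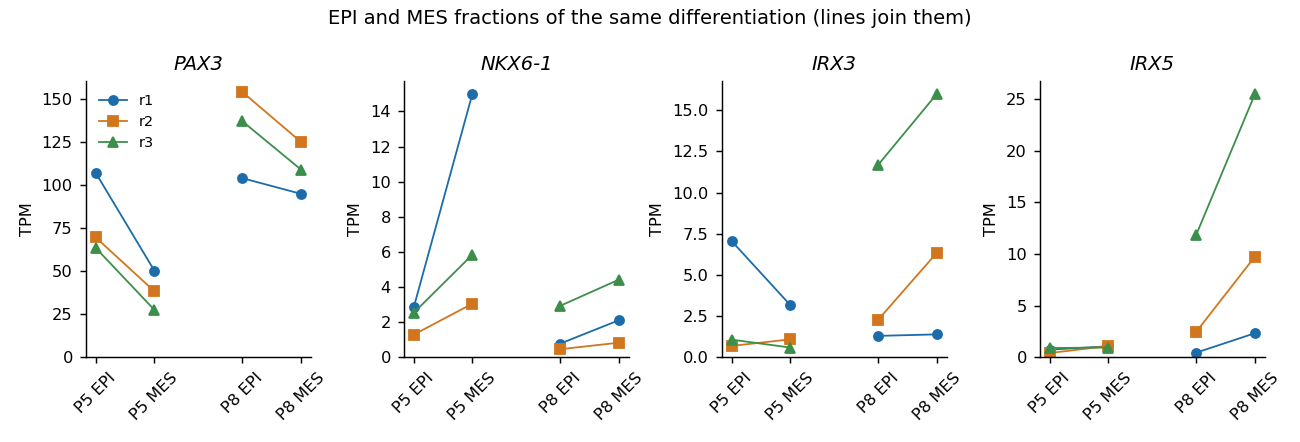
TPM of *PAX3*, *NKX6-1*, *IRX3* and *IRX5* in the EPI and MES fractions at P5 and P8, with lines joining the fractions of 1 differentiation. *PAX3* is lower in MES and *NKX6-1* and *IRX5* higher in MES along every line, and the P5 groups of these 3 genes do not overlap.

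Other dorsoventral genes gave the surroundings of these values. Of 37 listed genes, 30 were tested in the whole cultures. Of these, 4 were called higher at 36 h against t0 and none lower, beside 2.71% of all genes: the roof plate genes *MSX1* (log2 fold change 7.21, edgeR adjusted p = 3.5e-06) and *MSX2* (4.52, adjusted p = 0.0023), *SP8* (3.28, adjusted p = 0.0063) and *NTN1*, which encodes a guidance cue (3.24, adjusted p = 0.005). Between 36 h and P3, 5 were called higher and none lower, beside 2.88% and 4.05% of all genes, while at an adjusted p below 0.05 by edgeR 9 had a higher and 5 a lower value. Of all 21750 genes, 6330 had an adjusted p below 0.05 in this interval. The 5 called were the hedgehog pathway genes *GLI3*, *PTCH1* and *HHIP* and the roof plate genes *LMX1B* and *MSX2*, with log2 fold changes from 1.97 for *GLI3* to 8.44 for *LMX1B*. Between P3 and P8, where 1.61% of all genes were called, edgeR called 0 of the 30, with 11 at an unadjusted p below 0.05, and DESeq2 called 1. Of all 21750 genes, 5273 had such an unadjusted p and DESeq2 called 740. *MSX2* alone was called between P8 and P9 with P10, beside 1.25% of all genes (log2 fold change 4.34, edgeR adjusted p = 0.0023). Of the other roof plate genes tested, *MSX1*, *LMX1B* and *GDF7* had higher values and *LMX1A* a lower one (log2 fold change -4.57, edgeR adjusted p = 0.028). In that interval 18 of the 30 had an unadjusted p below 0.05 and DESeq2 called 3, and of the 10 with an adjusted p below 0.05 by edgeR, 8 had a lower and 2 a higher value. Of all 21750 genes, 5708 had an unadjusted and 2257 an adjusted p below 0.05 by edgeR there, and DESeq2 called 740. The median log2 fold change of the 30 genes was 0.08, 1.08, -0.45 and -1.29 in the 4 intervals, against medians between -0.02 and 0.01 over all genes. In the fractions, edgeR called 0 of 24 at P5 and 0 at P8, with 13 and 3 at an unadjusted p below 0.05, and DESeq2 called 3 and 0. Of all 18885 genes, 4894 and 2261 had such an unadjusted p, and DESeq2 called 674 and 55.

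Among the ventral signals and floor plate genes, *NTN1* was the most abundant, at 6.16, 21.2 and 26.8 TPM at P1 and 39.2, 3.67 and 4.4 TPM at P3. *SHH*, the ventral ligand, did not exceed a mean of 0.193 TPM in any group. *FOXA2*, a floor plate gene, was at 7.45, 1.99 and 0.18 TPM at 36 h in r1, r2 and r3 and had a mean of 0.303 TPM at P1. *NKX2-2*, the most ventral of the listed progenitor factors, did not exceed a mean of 0.0267 TPM. *PTCH1*, a hedgehog receptor and target, rose from a mean of 19.5 TPM at 36 h to 240.0 TPM at P3. Of the 5 hedgehog readout genes, *GLI1*, also a target, had a mean of 8.50 TPM at 36 h and 4.28 TPM at P3 (log2 fold change -1.21, SE 0.50, edgeR adjusted p = 0.073), and *GLI2* had a log2 fold change of 0.13 (adjusted p = 0.86). Among intermediate and dorsal progenitor genes, 6 of 8 were tested and edgeR called 0 in each interval, with 0, 2, 4 and 4 at an unadjusted p below 0.05 in order of time, and DESeq2 called 0. Of all 21750 genes, 5677, 8643, 5273 and 5708 had such an unadjusted p, and DESeq2 called 881, 1847, 740 and 740. The highest group means of *OLIG3*, *LBX1* and *GSX1* were 1.75 TPM at P6, 1.37 TPM at P2 and 1.18 TPM at P4. Of the other Iroquois genes, *IRX2* was the most abundant, with a mean of 8.83 TPM at t0, 18.1 TPM at P1 and 2.07 TPM at P8.

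Genes with the profile most like that of a member over the 16 group means were found by Pearson's r of log2 CPM among 15088 genes. For *PAX3* these were *WNT5A*, *HIST1H3E* and *AC018647.2* (r of 0.99, 0.99 and 0.98). For *IRX5* they were *TBX2*, *RGCC* and *IFI44* (0.98, 0.97 and 0.97), and for *OLIG2* *INTS13*, *SUDS3* and *CTSC* (0.99, 0.98 and 0.97). *NKX6-1* was nearest to *AP4B1*, *KCP* and *IPP* (0.95, 0.95 and 0.94) and *IRX3* to *HADHB*, *AGO4* and *ZNF350* (0.85, 0.84 and 0.83). Among the members themselves, *PAX3* and *OLIG2* had r = -0.95 and *IRX3* and *IRX5* r = 0.79. The groups share differentiations and libraries of the same passage, so these values describe the profiles only.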

How the data were processed

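The 47 libraries were polyA-selected and sequenced as 75-base single-end reads. The submitters' processing notes name cutadapt 1.16, STAR 2.5.2b, RSEM 1.3.0 and GRCh38; the annotation release and the strand setting are not given in the sources used here. The authors deposited RSEM expected counts (estimated counts, of which 9.33% were not whole) and RSEM's TPM for each library, without pooling replicates. FPKM columns were not used. Symbols were matched for 57447 of 58051 genes to GENCODE 29.

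Expected counts were rounded and tested with edgeR 4.0.16 in R 4.3.3 (glmQLFit and glmQLFTest, TMM, filterByExpr, Benjamini-Hochberg over all genes tested), with the differentiation as a block. The 35 whole cultures shared one fit and the 12 fraction libraries another. A call needed an FDR under 1%, a 2-fold or larger difference and 100 or more normalized counts on average in the libraries compared; for the F-test, the fold is the largest difference between time points. Normalized counts are rounded counts over TMM size factors of all 47 libraries. DESeq2 1.42.0 was an alternative. The numbers pair libraries because the series describes each experiment as 1 differentiation followed through all time points. Over 13297 genes, deviations from the group mean correlated within a number at a mean r of 0.14 in whole cultures (lowest -0.2) and 0.42 in fractions, against -0.07 and -0.21 between numbers. Every pair of replicates differed beyond sampling noise. Without molecular identifiers in the reads, intervals and the floor of 3 counts reflect counting error alone.

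All 10 members are named. Of every other list, at most 6 genes with the highest mean counts are named, except in the NC list. There *FOXD3* and *SOX10*, with the lowest mean counts of that list, are named to give both directions. Like profiles are the 3 genes of highest r for members that reach 100 normalized counts in a group mean, over 16 groups. The members and lists were chosen with earlier results of these data known. Fits were tested on simulated data with less spread between replicates than was estimated in these libraries. The share of true changes found in these data is therefore not known from that test.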

Additional observations from a re-analysis of the deposited data

How the results depend on the processing

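Of the folds of single members under the alternatives, 692 kept their direction and their side of the threshold, 12 passed it newly, 13 no longer passed, and 9 changed sign, none of them called in either fit. These were *PAX6* at 36 h against t0 with no replicate block (0.74) and without r2 (0.33), *PAX6* at P3 against 36 h (0.42) and *IRX5* at 36 h against t0 (-0.83) without the 36 h and P1 libraries of r1, *IRX5* at 36 h against t0 without r1 (-0.08) and without r3 (-0.04), *IRX3* at P8 against P3 when summed with *IRX5* (0.52), and, without r3, *OLIG2* in P5 MES against EPI (0.01) and *PAX7* in the difference between passages (-0.05). With libraries left out, these folds ranged from -4.55 to 0.33 and from -2.06 to 0.42 for *PAX6* in these intervals, from -0.83 to 0.3 for *IRX5*, from -0.35 to 0.01 for *OLIG2* and from -0.05 to 1.57 for *PAX7*. Without the minimum of 100 normalized counts, 2 members were called at 36 h against t0 and 7 in the F-test. All genes called then numbered 831 at 36 h against t0, 2427 at P3 against 36 h and 9590 in the F-test. At an FDR under 5%, 1 member was called for P9 with P10 against P8 and 1 for P5 MES against EPI, and genes called numbered 964 (36 h against t0), 777 (P8 against P3), 786 (P9 with P10 against P8) and 503 (P5 fractions). DESeq2 called 2 members for P9 with P10 and 2 for the P5 fractions, and 740 genes for P8 against P3, 740 for P9 with P10, 674 for the P5 fractions, 55 for the P8 fractions and 1 for their difference. With no replicate block, 1 member and 235 genes were called for P8 against P3 and 37 genes for P9 with P10 against P8. A block within each passage, chosen after seeing the data, gave 1 member and 305 genes for the P5 fractions. With all 47 libraries in the fit, 508 genes were called for P9 with P10 and 13 for the P5 fractions, and with no count filter 82 for the latter. P10 alone against P8 gave 19 genes, and P9 with P10 without P10 replicate 1 alone gave 1007.

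Leaving out each differentiation in turn gave 0 to 1 members and 83 to 891 genes at 36 h against t0, 357 to 1773 genes at P3 against 36 h, 0 to 2 members and 4 to 777 genes at P8 against P3, 0 to 1 members and 0 to 928 genes for P9 with P10, and 2 to 4 members and 2615 to 6810 genes in the F-test. The low ends came without r2 or r3, and the high ends of the gene counts without r1. All these fits have fewer libraries, with 10 residual degrees of freedom in whole cultures without r1, 10 without r2 and 11 without r3. Why they differ was not tested. Without r1 or r2, P9 has 1 library, which is assumed to vary like the other groups. Of the 15 genes with the most like profiles, 4 were found again on log2(TPM + 1) and 7 over the 12 time points. *DBX1*, *DBX2* and *NKX6-2* had too few reads to enter the test.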
